A study of Sus scrofa with 18 samples.

Results

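The transcripts described here encode 10 antioxidant defence proteins: haem oxygenase 1 (HMOX1), the quinone reductase NQO1, thioredoxin (TXN), thioredoxin reductase 1 (TXNRD1), both subunits of glutamate-cysteine ligase (GCLC and GCLM), superoxide dismutases 1 and 2 (SOD1 and SOD2), catalase (CAT) and glutathione peroxidase 1 (GPX1). They are 10 of the 6765 genes that the probe-to-gene table names singly on the array. Every probe set assigned to exactly 1 of these symbols was taken, which gave 18 probe sets. A probe set is a group of short oligonucleotides that are read together as 1 value. GCLC had 5 probe sets, numbered by falling brightness where the text tells them apart, TXNRD1 had 3, TXN and GCLM had 2 each, and the other 6 genes had 1 each.

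Right ventricular failure was produced in 9 pigs of mixed Hampshire, Yorkshire and Swedish Landrace breed by ligating coronary arteries on the ventricle's free wall. RNA of the free wall was hybridised to Affymetrix 3′ expression arrays, 1 array per pig in failure and 1 per pig at baseline. In 6 pigs (6, 8, 9, 11, 12 and 13, called label set 1) the failure sample is labelled with 120 min of ischemia. In the other 3 pigs (5, 10 and 14, label set 2) failure was defined by a right atrial pressure above 20 mmHg. The sources used here give no age, and the groups hold no animal sampled over the same time without ligation, so ligation and elapsed time cannot be told apart.

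Cells remove superoxide with superoxide dismutases, which turn it into hydrogen peroxide, and remove the peroxide with catalase, glutathione peroxidases and peroxiredoxins. The last 2 families are kept working by glutathione and by thioredoxin, which are reduced again at the expense of NADPH. The transcription factor NRF2 is held down by KEAP1 in resting cells. Oxidants and electrophiles release it, after which it can raise HMOX1, NQO1, TXN, TXNRD1, GCLC and GCLM. In heart muscle, ischemia and reperfusion are classical sources of such oxidants, largely from mitochondria.

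All values are log2 intensities as deposited, so a difference of 1 is a 2-fold difference, and the level of one probe set does not give the amount of its transcript relative to that of another. Probe sets are called bright or dim, or set against the array median, only to show how much signal they had. The 18 arrays had medians of 5.59 to 5.66. Of 20 listed cardiomyocyte markers 16 were measured, 0 of them below the array median, and MYH7, the slow cardiac myosin heavy chain, averaged 14.94 ± 0.06 in failure and 14.96 ± 0.02 at baseline (SD, n = 9 each). The highest tested value of any probe set was 15.17, so MYH7 lay near the top of the scale. All 6 measured neutrophil markers and 12 of 13 lymphocyte markers lay below the array median. RNA quality was read from the log2 difference between probe sets at the 3′ and 5′ ends of GAPDH, which grows as RNA degrades. It was 3.55 on the failure array and 2.61 on the baseline array of pig 5, the highest of each group, whereas the group means were 1.38 ± 0.97 in failure and 1.15 ± 0.61 at baseline (SD, n = 9 each). Pig 5 also had the lowest failure array for 7 of the 10 genes and the lowest baseline array for 5 of them, taking each gene's brightest probe set. The log2 change, failure minus baseline, is given below without pig 5 for SOD1, SOD2, CAT and GCLC, and also for GPX1, which was not lowest in that pig. Without pig 5 it was 0.016 for NQO1, and for the brightest probe sets of TXN and TXNRD1 it was 0.071 and -0.016.

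In failure against baseline, 0 of the 18 probe sets passed an adjusted p of 0.05 in limma with pig as a block, while 16 of all 23935 tested probe sets (0.0668%) did, 11 of them lower (0.046%) and 5 higher (0.0209%). Before adjustment, 2 of the 18 (11.1%) had a p under 0.05, one for GPX1 and one for GCLC, beside 6.14% of all probe sets. They were also the only 2 of the 18 whose deposited values had at most 2 decimals on all arrays. How many of all probe sets had such values was not counted, and the reason was not tested. With all values rounded to 2 decimals, 2 of the 18 again had an unadjusted p under 0.05 in limma. In the fit to the values as deposited, adjusted p-values of the 18 ran from 0.695 to 0.997. The log2 change, failure minus baseline, was below 0 for 12 of the 18 probe sets and for 8 of the 10 genes, beside 49.8% of all probe sets and 53.6% of all named genes. Its median was -0.022 over the 18 probe sets and -0.047 over the 10 genes, against 0.000344 and -0.00659 over all probe sets and all named genes. With the GAPDH difference as a covariate, the median over the 18 probe sets was 0.00535. For the brightest probe sets, the 95% intervals of the change lay between -0.45 and 0.45, so none reached past a 1.37-fold difference in either direction. The tissue was measured in bulk, so that fewer cells of a type and less RNA per cell cannot be told apart.

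**Figure D1:**
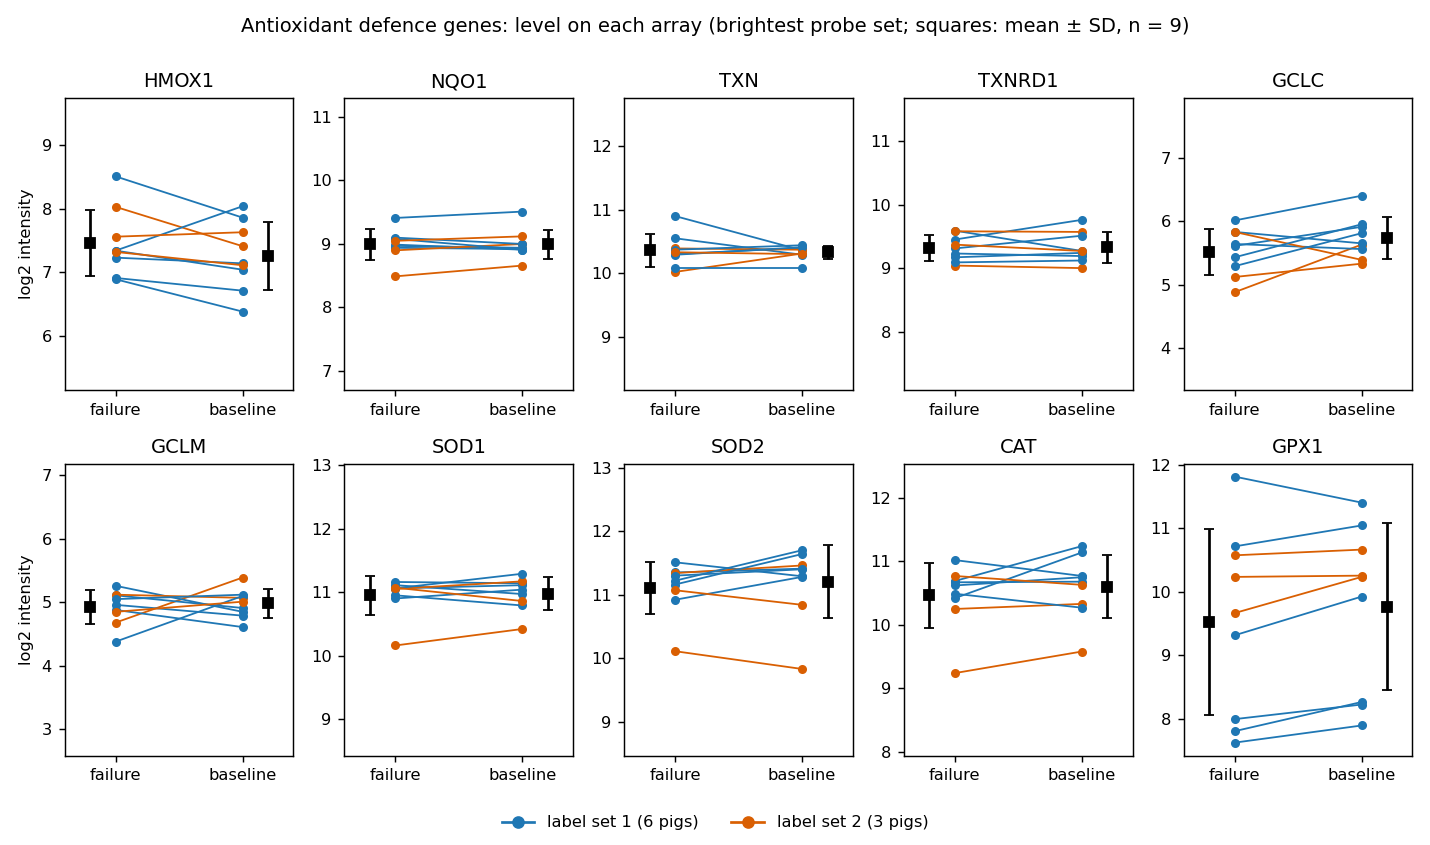
Log2 intensity (vertical axis, same span in every panel) of the brightest probe set of each gene on the 9 failure and the 9 baseline arrays, with a line for each pig and squares with bars for mean ± SD. The failure and baseline points of every gene overlap, SOD1, SOD2 and CAT each have pig 5 at the bottom, and GPX1 is spread over 7.62 to 11.81 in failure.

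HMOX1 encodes the inducible enzyme that cleaves haem to biliverdin, iron and carbon monoxide, and it is a standard target of NRF2. Its probe set had a lowest, median and highest value of 6.89, 7.34 and 8.51 in failure, against 6.38, 7.14 and 8.04 at baseline. The groups overlapped over most of their ranges. By animal, the changes were 0.62, 0.66, 0.30, -0.70, -0.07, 0.20, 0.51, 0.09 and 0.21 in pigs 5, 6, 8, 9, 10, 11, 12, 13 and 14. The transcript was thus higher in 7 of 9 pigs, while pig 9 went the other way by more than any other animal moved. The mean change of 0.20 (SE 0.11, 95% interval -0.044 to 0.45) did not pass in limma (adjusted p = 0.864). Without pig 9 it was 0.32 (SE 0.08, adjusted p = 0.433). With that GAPDH measure of RNA quality as a covariate it was 0.12 (SE 0.12).

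NQO1, which reduces quinones by a pair of electrons at once and so avoids semiquinone radicals, was among the steadiest of the genes. Its level had a lowest, median and highest value of 8.49, 8.99 and 9.41 in failure, against 8.66, 8.94 and 9.51 at baseline. The range in failure nearly coincided with that at baseline. No pig moved by more than 0.17 in either direction, and the SD of the change over pigs was 0.11, a value matched or exceeded by 95.6% of all probe sets. The mean change was -0.00434 (SE 0.055, 95% interval -0.12 to 0.11, adjusted p = 0.997 in limma), with 5 pigs higher and 4 lower.

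Thioredoxin is the small protein that reduces disulphides in peroxiredoxins and in other targets. Its bright probe set had a lowest, median and highest value of 10.02, 10.33 and 10.90 in failure, against 10.08, 10.36 and 10.44 at baseline. The failure arrays spread wider, and 5 pigs were higher and 4 lower. The change was 0.031 (SE 0.077, 95% interval -0.13 to 0.20, adjusted p = 0.975 in limma), and by pig it ran from -0.29 in pig 5 to 0.54 in pig 8.

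The other TXN probe set, whose mean lay below the array median, gave a different picture. Its lowest, median and highest values were 5.11, 5.43 and 6.53 in failure, against 4.96, 5.26 and 5.59 at baseline. The change was 0.26 (SE 0.13, unadjusted p = 0.0613, adjusted p = 0.824 in limma) and was higher in 7 of 9 pigs. Pig 9 contributed 1.17 of change, and without that pig the mean was 0.14.

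TXNRD1 uses NADPH to reduce thioredoxin and carries selenocysteine at its active site. Its brightest probe set had a lowest, median and highest value of 9.04, 9.31 and 9.59 in failure, against 9.0, 9.27 and 9.76 at baseline. The groups lay over each other, with 5 pigs higher and 4 lower, and the change was -0.010 (SE 0.065, 95% interval -0.15 to 0.13, adjusted p = 0.996 in limma). The other TXNRD1 probe sets had changes of -0.063 (SE 0.061, adjusted p = 0.933, the second in brightness) and -0.13 (SE 0.09, adjusted p = 0.897, the third), each with 4 pigs higher and 5 lower.

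Glutamate-cysteine ligase makes the first and rate-limiting product of glutathione synthesis. GCLC is its catalytic subunit and GCLM its modifier. The brightest GCLC probe set had a lowest, median and highest value of 4.88, 5.61 and 6.01 in failure, against 5.33, 5.65 and 6.40 at baseline. The medians were nearly equal, although 6 of 9 pigs were lower in failure. Its change was -0.22 (SE 0.11, 95% interval -0.45 to 0.00689, unadjusted p = 0.0564, adjusted p = 0.824 in limma), it was -0.16 without pig 5, and it was -0.12 with the GAPDH covariate.

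The other 4 GCLC probe sets were dim and did not share one direction. In order of brightness, the changes were 0.060 for the second, 0.10 for the third, -0.19 for the fourth and 0.058 for the fifth, with adjusted p-values of 0.951, 0.903, 0.695 and 0.947 in limma. The fourth had an SE of 0.07 and an unadjusted p of 0.0203, with 7 of 9 pigs lower. Its change was -0.12 with the GAPDH covariate (adjusted p = 0.820 in limma). Over pigs it had an r of -0.710 with the change of the GAPDH 3′/5′ difference, a size that 9.82% of all probe sets matched or exceeded. The 25th percentiles of the 18 arrays ran from 3.91 to 4.07. Values under that mark were found on 2 arrays for the second probe set, 11 for the third, 12 for the fourth and all 18 for the fifth. GCLM was dim as well. Its brighter probe set had a lowest, median and highest value of 4.38, 4.96 and 5.26 in failure, against 4.61, 5.01 and 5.39 at baseline. Pig changes were as low as -0.73 in pig 12 and -0.71 in pig 5 and as high as 0.41 in pig 8, around a mean of -0.064 (SE 0.11, 95% interval -0.30 to 0.18, adjusted p = 0.961 in limma). The dimmer GCLM probe set, below the 25th percentile on all 18 arrays, had a change of -0.013 (adjusted p = 0.989).

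**Figure D2:**
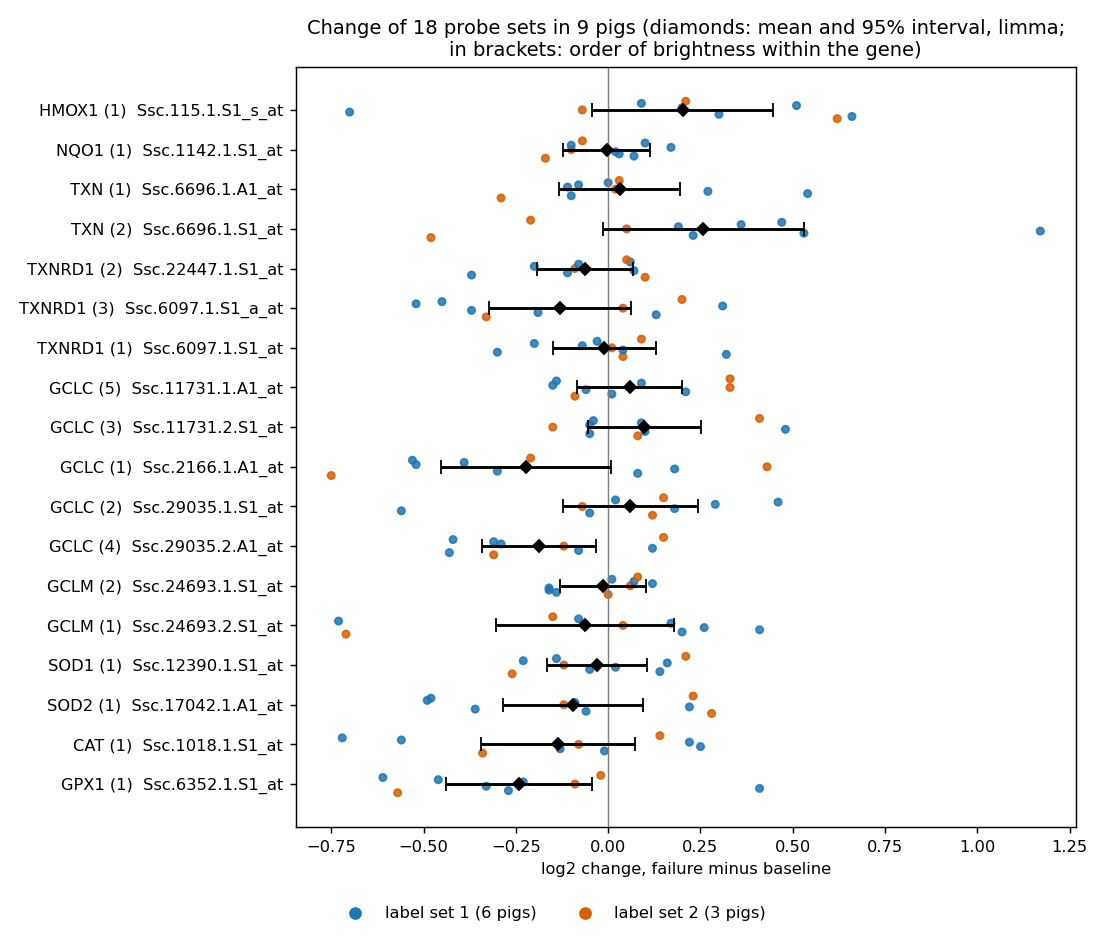
Log2 change, failure minus baseline (horizontal axis), of the 18 probe sets, with a point for each pig coloured by label set, diamonds with bars for the limma mean and 95% interval, and each probe set's identifier after its order of brightness within the gene. The intervals of GPX1 and of the fourth GCLC probe set lie wholly below 0 before adjustment, and the points of single pigs reach from -0.75 in pig 5 for the brightest GCLC probe set to 1.17 in pig 9 for the dim TXN probe set.

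SOD1 is the copper and zinc superoxide dismutase of the cytosol. Its level had a lowest, median and highest value of 10.16, 11.06 and 11.16 in failure, against 10.42, 11.04 and 11.29 at baseline. Apart from pig 5, which was lowest in both, the animals lay close together. The change was -0.030 (SE 0.064, 95% interval -0.17 to 0.11, adjusted p = 0.972 in limma) and was -0.000838 without pig 5.

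SOD2 is the manganese superoxide dismutase of the mitochondrial matrix. Its lowest, median and highest values were 10.11, 11.22 and 11.51 in failure, against 9.83, 11.40 and 11.70 at baseline. Pig 5 again gave both of the lowest values, and 6 of 9 pigs were lower in failure. The change was -0.095 (SE 0.088, 95% interval -0.28 to 0.094, adjusted p = 0.926 in limma). It was -0.14 without pig 5, -0.063 without pig 8, -0.046 without pig 12, -0.047 without pig 13 and -0.036 with the GAPDH covariate.

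Catalase breaks hydrogen peroxide down without a reducing partner. CAT had a lowest, median and highest value of 9.24, 10.62 and 11.02 in failure, against 9.58, 10.68 and 11.24 at baseline. The groups overlapped almost fully, although 6 of 9 pigs were lower in failure. Changes were -0.34, -0.01, -0.13, 0.25, -0.08, 0.22, -0.56, -0.72 and 0.14 in pigs 5, 6, 8, 9, 10, 11, 12, 13 and 14, so pigs 12 and 13 carried most of the mean of -0.14 (SE 0.10, 95% interval -0.35 to 0.074, adjusted p = 0.898 in limma). Without pig 13 it was -0.063, and without pig 5 it was -0.11.

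GPX1, a selenoenzyme that reduces hydrogen peroxide with glutathione, shared the smallest adjusted p of the 18 probe sets with the fourth GCLC probe set. In pigs 5, 6, 8, 9, 10, 11, 12, 13 and 14 its probe set read 9.66, 7.62, 11.81, 10.71, 10.57, 7.99, 7.80, 9.31 and 10.23 in failure, against 10.23, 7.89, 11.40, 11.04, 10.66, 8.22, 8.26, 9.92 and 10.25 at baseline. Pig 8 alone was higher in failure, and the other 8 were lower. The change of -0.24 (SE 0.09, 95% interval -0.44 to -0.044) corresponds to a 1.18-fold lower level and had an unadjusted p of 0.0199, which did not pass adjustment in limma (adjusted p = 0.695). It was -0.32 without pig 8 (adjusted p = 0.261), -0.20 without pig 5 and -0.17 with the GAPDH covariate.

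The difference between animals was far larger for GPX1 than any change within an animal. Pigs 6, 11 and 12 lay below 9 on both of their arrays and the other 6 pigs lay above 9 on both. The range over pigs was 18.3-fold in failure and 11.4-fold at baseline, and 7 of 9 pigs held the same rank in both conditions. The level had an SD over pigs of 1.47 in failure and 1.31 at baseline, which 0.138% and 0.163% of all probe sets matched or exceeded. The SD of its change within pigs was 0.32, which 15.9% of probe sets matched or exceeded. Among the 39 probe sets with a baseline SD at or above that of GPX1, 6 including GPX1 had an SD of change no larger than its own, and 3 of these carried 1 gene name. The other 2 named genes, singled out after their values were seen, were OAS1, an interferon-induced enzyme that senses double-stranded RNA (baseline SD 1.52, SD of change 0.21), and EIF1AY, a translation factor gene of the Y chromosome (baseline SD 3.16, SD of change 0.21).

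The other 9 genes had baseline SDs between 0.11 for TXN and 0.57 for SOD2. Only 1 GPX1 probe set was named, so a second measurement of the same transcript was not analysed here, and whether the gap between animals lies in the amount of transcript or in how the probes bind it was not tested. Of other selenoprotein transcripts, GPX4 and SELENOW spanned less. GPX4, the glutathione peroxidase of membrane lipids, ran from 10.71 to 11.67 in failure, against 11.12 to 11.71 at baseline. SELENOW, a small muscle selenoprotein, ran from 7.66 to 9.18 in failure, against 8.41 to 9.56 at baseline. Label set did not sort the GPX1 levels, since the 3 low animals and the 2 highest ones all belong to label set 1.

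**Figure D3:**
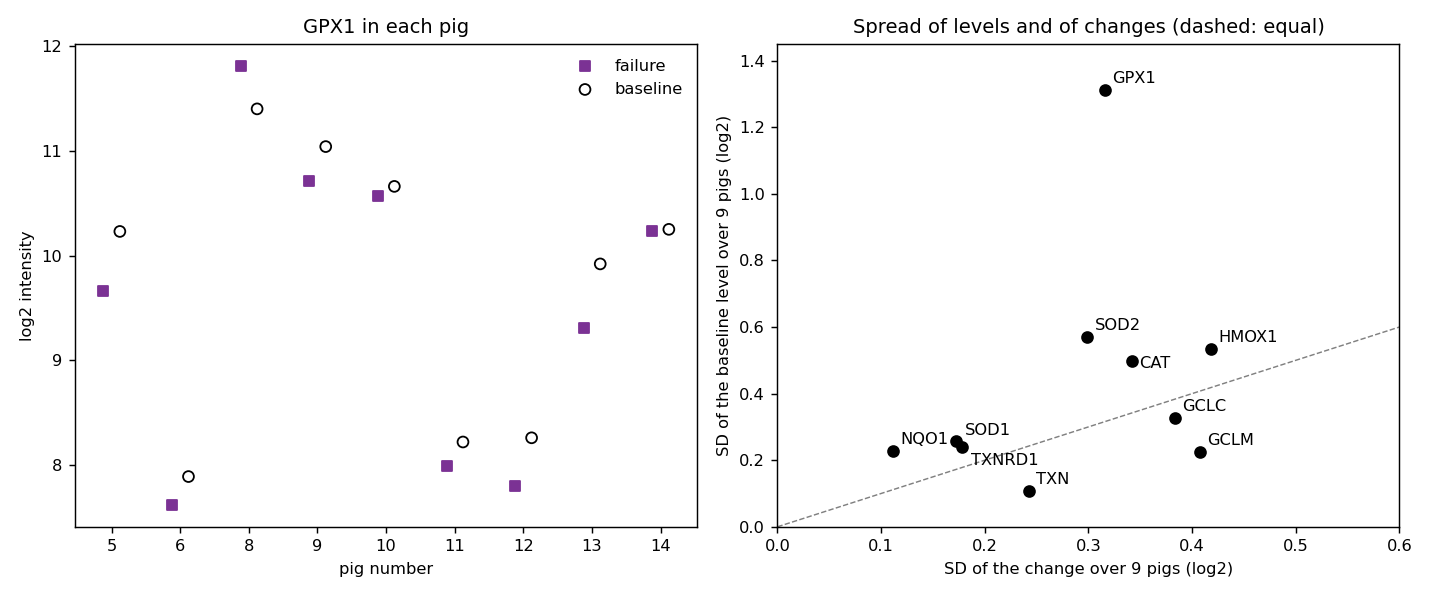
Left, log2 intensity of GPX1 (vertical axis) in each of the 9 pigs (horizontal axis), with filled squares for failure and open circles for baseline. Right, SD of the baseline level (vertical axis) against SD of the change (horizontal axis), both over 9 pigs, for the brightest probe set of each gene; GPX1 stands alone at 1.31 and 0.32, far above the dashed line of equal spread.

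Whether the genes moved with RNA quality was looked at across animals. The GAPDH 3′/5′ difference was 0.237 ± 0.556 higher in failure (SD of 9 paired differences, 6 of 9 pigs higher, two-sided exact sign-flip permutation test, p = 0.246, where the smallest possible p is 0.00391). The change of CAT ran against it pig by pig. Pearson's r was -0.923 (two-sided exact permutation test, p = 0.000694, adjusted over the 10 genes 0.00694) and Spearman's rho was -0.95 (p = 0.000353, adjusted 0.00353) over 9 pigs. Leaving out pigs 13 and 5, the farthest from the median change of GAPDH, r was -0.922. The 6 pigs of label set 1 gave -0.956 (n = 6, exact permutation p = 0.00139). Label set 2 holds 3 pigs, too few for a value of its own. With the GAPDH covariate, the CAT change was -0.00109 (SE 0.063).

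A second pair of GAPDH probe sets gave r = -0.847 for CAT (exact permutation p = 0.00306, adjusted 0.0306, rho -0.883, p = 0.00308), -0.66 without pigs 9 and 13, and -0.886 within label set 1. The 3′/5′ difference of actin gave r = -0.715 (exact permutation p = 0.0241, adjusted 0.155, rho -0.85, p = 0.00607), -0.599 without pigs 9 and 13, and -0.682 within label set 1. CAT was the only 1 of the 10 genes whose relation to the first GAPDH pair passed adjustment. An r of that size or larger in either direction was found for 0.543% of all probe sets, and 15 of the 18 probe sets described here had an r below 0, beside 47.8% of all probe sets.

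SOD1 had r = -0.748 with the first GAPDH pair (exact permutation p = 0.0224, adjusted 0.112, rho -0.783, p = 0.0172) over 9 pigs, -0.686 without pigs 13 and 5 and -0.679 within label set 1, and did not pass adjustment. With the second GAPDH pair its r was -0.408 (exact permutation p = 0.281, adjusted 0.562, rho -0.567, p = 0.121) and with actin -0.425 (exact permutation p = 0.262, adjusted 0.521, rho -0.6, p = 0.0968). SOD2 had r = -0.469 over 9 pigs (exact permutation p = 0.205, adjusted 0.293, rho -0.433, p = 0.25), and pig 5 lay away from the rest. Without pigs 13 and 5 it was -0.972, and the pigs of label set 1 alone gave -0.887 (n = 6, exact permutation p = 0.0194). With the second GAPDH pair the r of SOD2 was -0.559 (exact permutation p = 0.119, adjusted 0.398), -0.119 without pigs 9 and 13 and -0.846 within label set 1. With actin it was -0.613 (exact permutation p = 0.0683, adjusted 0.171), -0.416 without pigs 9 and 13 and -0.894 within label set 1. GPX1 had r = -0.529 (exact permutation p = 0.143, adjusted 0.287, rho -0.567, p = 0.121) over 9 pigs, -0.35 within label set 1 and 0.00642 without pigs 13 and 5, so that its relation rested on those animals. GCLC had r = -0.647 with the first GAPDH pair (exact permutation p = 0.0602, adjusted 0.201, rho -0.683, p = 0.0503), -0.355 without pigs 13 and 5 and -0.661 within label set 1. HMOX1 had the opposite sign, with r = 0.479 (exact permutation p = 0.194, adjusted 0.293, rho 0.45, p = 0.230), 0.688 without pigs 13 and 5 and 0.398 within label set 1. Its r with actin was 0.757 (exact permutation p = 0.031, adjusted 0.155, rho 0.433, p = 0.25), and 0.522 without pigs 9 and 13.

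**Figure D4:**
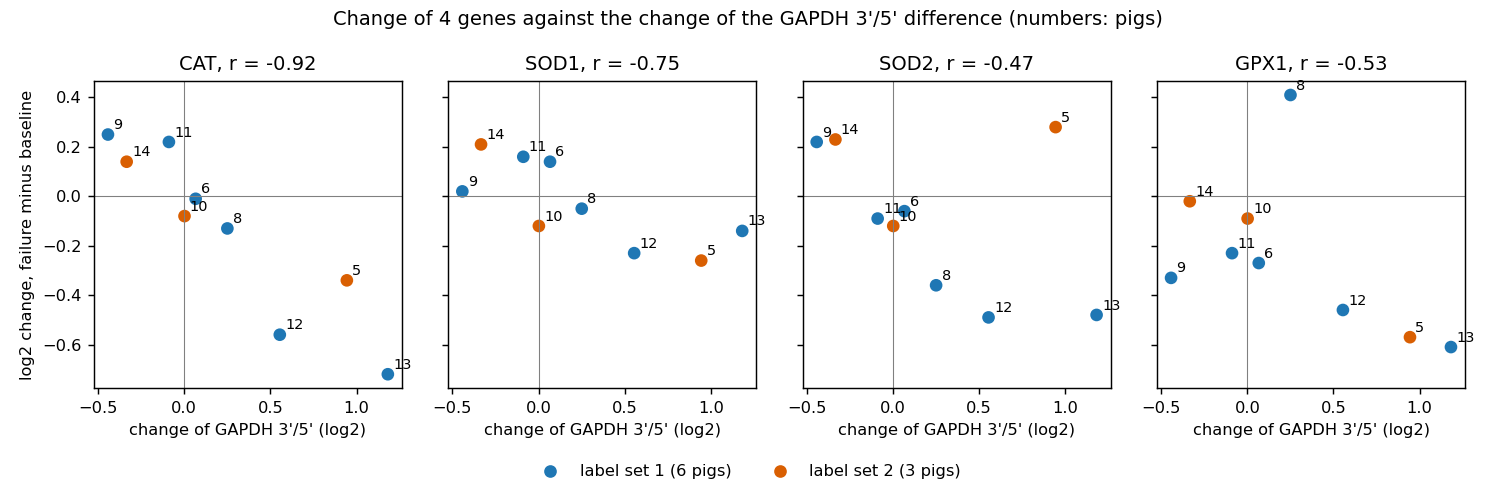
Log2 change, failure minus baseline (vertical axis), of CAT, SOD1, SOD2 and GPX1 against the change of the GAPDH 3′/5′ difference (horizontal axis, log2), a point for each pig with its number, coloured by label set. The points of CAT run downward from pig 9 to pig 13 (r = -0.92), and pig 5 lies off the line of the other animals for SOD2.

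Among the 10 genes, 45 pairs of changes were compared over 9 pigs. None passed adjustment, 4 had an unadjusted p under 0.05 for r, and 30 had an r above 0. Pairs of other genes were not counted in the same way. These counts therefore do not show whether the 10 genes moved together more than other genes. SOD1 and CAT moved most alike (r = 0.77, exact permutation p = 0.017, adjusted 0.491, rho 0.8, p = 0.0138). Their r was 0.781 without pigs 14 and 5 and 0.834 within label set 1. Both genes had an r below 0 with the first GAPDH pair, of which only that of CAT passed adjustment, and the part of RNA quality in their likeness was not tested.

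The 3 genes with the widest spread of change over pigs were HMOX1 (SD 0.42), GCLM (0.41) and GCLC (0.38). Over all named genes above the array median, the change of HMOX1 was most like those of MAOA (r = 0.985), which oxidises monoamines at the mitochondrial outer membrane, CERCAM (0.974) and AEBP1 (0.966), a matrix-associated protein. For GCLM they were DCAF13 (0.933), PCID2 (0.929) and MFAP3 (0.92). For GCLC they were DYNLL2 (0.925), MPDU1 (0.903) and ACTA2 (0.901), the smooth muscle actin. These are descriptions over 9 pigs picked as the highest of 4923 or 4924 genes, and the 9 pairs of arrays share their RNA quality. HMOX1 and MAOA both had their lowest change in pig 9 (-0.70 and -0.34) and their highest in pig 6 (0.66 and 0.26). Their r without pig 9 was not calculated.

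The response itself was compared between the label sets as an interaction in the same model. None of the 18 probe sets passed in limma, as none of all 23935 did (0%). At an unadjusted p under 0.05 there was 1 of 18, the dim TXN probe set, beside 5.67% of all. Its change was 0.49 ± 0.36 in label set 1 (SD, n = 6) and -0.21 ± 0.27 in label set 2 (n = 3), a difference of -0.71 (SE 0.20, adjusted p = 0.867 in limma). On its baseline arrays alone it was 0.31 higher in label set 2.

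Levels before ligation were compared between the label sets too. Among baseline arrays, 0 of the 18 probe sets passed in limma (5 of all, 0.0209%), and 4 of 18 had an unadjusted p under 0.05, beside 13.9% of all probe sets. SOD2 was -0.74 (SE 0.27, adjusted p = 0.302), CAT -0.63 (SE 0.24, adjusted p = 0.311) and the brightest GCLC probe set -0.43 (SE 0.17, adjusted p = 0.312) in label set 2 minus label set 1. Pig 5, with the highest GAPDH 3′/5′ differences, is 1 of the 3 animals of label set 2, and without it the differences were -0.30 for SOD2 (SE 0.18, adjusted p = 0.642), -0.33 for CAT (SE 0.23, adjusted p = 0.685) and -0.52 for GCLC (SE 0.19, adjusted p = 0.523 in limma). SOD2 and CAT were closer between the label sets in that comparison, and GCLC was not. Without pig 5, 2 of 18 had an unadjusted p under 0.05 in limma, the brightest and the dimmest GCLC probe sets. The share of all probe sets was not counted for that fit, so this count has no background beside it.

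Around these genes, 9 lists of related pathways held 162 genes, of which 104 were measured. In limma, 0 of the 104 passed, beside 0.103% of all named genes, and 4 had an unadjusted p under 0.05, beside 5.54%. Their changes were below 0 for 67 and above 0 for 37, beside 53.6% of all named genes below 0. Their median was -0.026, against -0.00659 over all named genes, and the smallest adjusted p was 0.695 in limma. That 53.6% is also the background for counts of direction in the single lists below. No list was tested as a set. Of the 9 listed regulators of NRF2 and its release, the array table named SQSTM1 alone, an adaptor that binds KEAP1, and it averaged 10.35 ± 0.22 in failure and 10.34 ± 0.19 at baseline (SD, n = 9 each).

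In the thioredoxin and peroxiredoxin list, 0 of 18 measured genes passed and 15 had a change below 0. TXNIP, which binds and restrains thioredoxin and is the brightest of the list, had a change of -0.019 (SE 0.061, adjusted p = 0.983 in limma). TXNL4A, a spliceosome component with a thioredoxin fold, had one of -0.17 (SE 0.078, adjusted p = 0.812), and TXNRD3, a further thioredoxin reductase, of -0.13 (SE 0.062, adjusted p = 0.824). In the glutathione list 0 of 24 passed and 16 were below 0. Values were -0.032 (SE 0.080) for GPX4, -0.086 (SE 0.057) for the iron-sulphur cluster glutaredoxin GLRX3 and 0.11 (SE 0.064) for GPX5, an epididymal peroxidase far below the array median here.

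None of the 9 genes of superoxide and mitochondrial peroxide handling passed. The change was -0.16 (SE 0.065, adjusted p = 0.753 in limma) for UCP2, a carrier of the mitochondrial inner membrane. It was -0.076 (SE 0.060) for NNT, which makes mitochondrial NADPH from the proton gradient, and -0.053 (SE 0.071) for IDH2, another mitochondrial source of NADPH. In the NADPH supply list 0 of 8 passed. Values were -0.14 (SE 0.067, adjusted p = 0.819 in limma) for MTHFD2, a mitochondrial enzyme of folate metabolism, -0.12 (SE 0.083) for malic enzyme 3 (ME3) and -0.067 (SE 0.060) for transaldolase (TALDO1).

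Haem and iron handling had 0 of 12 past the threshold. The iron-storing ferritin chains FTH1 and FTL had changes of -0.092 (SE 0.069) and -0.094 (SE 0.056), and haptoglobin (HP), which binds free haemoglobin, had 0.13 (SE 0.081). Among 12 detoxification genes 0 passed. The change was -0.17 (SE 0.078, adjusted p = 0.812 in limma) for the epoxide hydrolase EPHX2, -0.064 (SE 0.067) for the aldehyde dehydrogenase ALDH3A2 and 0.072 (SE 0.067) for the aldehyde reductase AKR1A1.

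Of 9 selenoprotein genes 0 passed. SELENOW had the lowest change of all 104 genes, averaging 8.55 ± 0.49 in failure and 8.92 ± 0.38 at baseline (SD, n = 9 each), a change of -0.37 (SE 0.14, adjusted p = 0.695 in limma) with 6 of 9 pigs lower. By pig it ran from -1.13 in pig 5, the animal with the highest GAPDH differences, to 0.24 in pig 6. The change was 0.025 (SE 0.073) for SELENOP, the plasma selenium carrier, and -0.086 (SE 0.053) for SEPHS2, which makes the selenium donor. Of 11 genes for enzymes or subunits that produce oxidants 0 passed. Values were -0.17 (SE 0.079, adjusted p = 0.803 in limma) for RAC2, a small GTPase of the phagocyte oxidase, and 0.034 (SE 0.065) and -0.14 (SE 0.084) for the monoamine oxidases MAOA and MAOB.

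Red blood cells are rich in several antioxidant enzymes, including CAT, SOD1 and GPX1. Of 5 measured markers of these cells, 3 passed as lower in limma, beside 0.046% of all probe sets. ALAS2, the erythroid enzyme that starts haem synthesis, changed by -1.27 (SE 0.14, adjusted p = 0.00486), the alpha globin chaperone AHSP by -1.19 (SE 0.18, adjusted p = 0.0205) and the globin HBM by -0.83 (SE 0.12, adjusted p = 0.0208), each in 9 of 9 pigs. By pig the changes ran from -1.82 to -0.11, from -2.14 to -0.07 and from -1.72 to -0.04, each smallest in size in pig 14. These lowest and highest changes had no more than 2 decimals, as the values of GPX1 did. HBB, the adult beta globin and the brightest of the list, had a change of -0.24 (SE 0.10, adjusted p = 0.770) with 6 pigs lower and 3 higher, and the embryonic globin HBE1, named to complete the list, had -0.49 (adjusted p = 0.0975). Neither passed. The summed level of the 5 markers, on the log2 scale, ranged from 8.64 to 9.86 in failure, against 9.49 to 11.08 at baseline. The part of red blood cell RNA in the values of GPX1, CAT and SOD1 was not tested.

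Monocyte and macrophage markers, which matter for HMOX1 because macrophages express it, had 0 of 10 measured genes past the threshold, 5 above 0 and 5 below. Their summed level ranged from 9.90 to 11.08 in failure, against 10.09 to 11.18 at baseline. C1QC, a complement component of tissue macrophages and the brightest of the list, had a change of -0.20 (SE 0.14, adjusted p = 0.892 in limma). Fibroblast markers had 0 of 11 past the threshold and 10 above 0, with DCN, the collagen-binding proteoglycan decorin, at 0.076 (SE 0.080).

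The remaining marker lists had 0 genes past the threshold as well. Of 16 cardiomyocyte markers 13 were below 0 and 3 above, with a median change of -0.043. The largest was 1.11 (SE 0.30, adjusted p = 0.432 in limma) for the natriuretic peptide gene NPPA, higher in 8 of 9 pigs. Of 15 endothelial markers 11 were above 0, and the adhesion molecule VCAM1, the brightest, had a change of 0.30 (SE 0.15, adjusted p = 0.830 in limma). Of 13 lymphocyte markers 10 were below 0, and the cytotoxic granule protein GNLY, the brightest, had -0.53 (SE 0.11, adjusted p = 0.153) with 9 of 9 pigs lower. The brightest neutrophil, smooth muscle and adipocyte markers were the protease MMP9 at 0.029 (SE 0.062), the filament protein DES at -0.028 (SE 0.14) and the fatty acid binding protein FABP4 at 0.069 (SE 0.088).

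**Figure D5:**
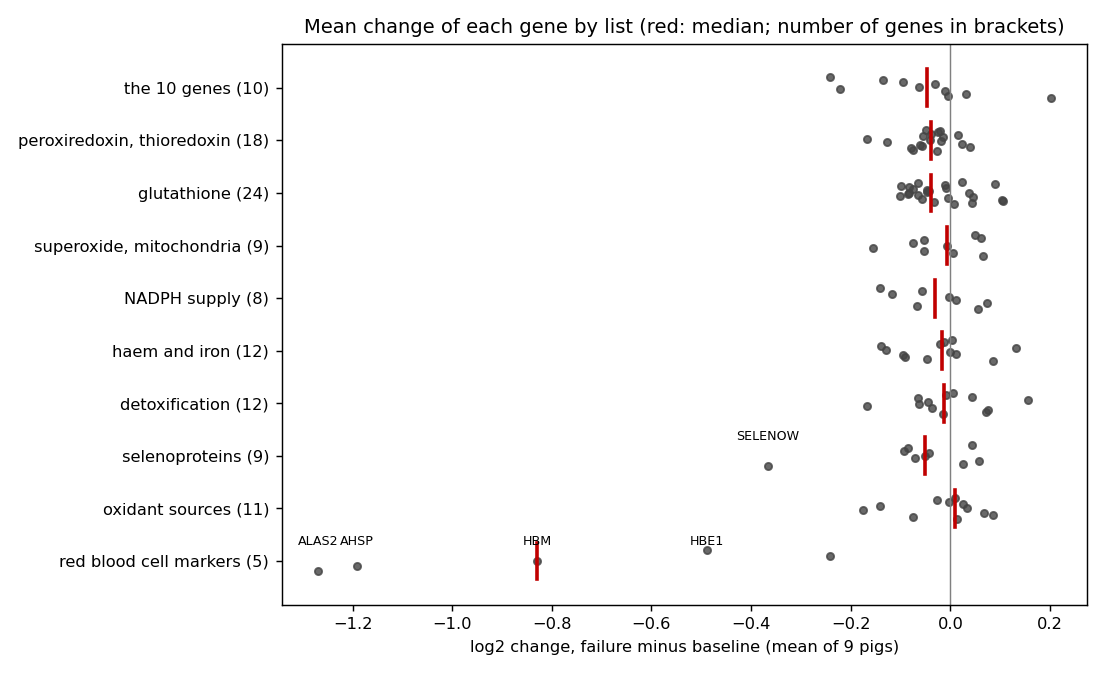
Mean log2 change over 9 pigs, failure minus baseline (horizontal axis), of each measured gene by list, a point for each gene and a red line for the median, with genes beyond 0.3 in size named. The antioxidant lists all centre close to 0 and SELENOW at -0.37 is the only pathway gene beyond 0.3, whereas the red blood cell markers reach -1.27.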

How the data were processed

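The deposited values were log2 intensities per probe set, made by the authors from 18 arrays. Partek is named without a version in the submitters' processing notes, with background correction, normalization and genome build not given in the sources used here. Some probe sets, among them GPX1 and the fourth GCLC probe set, had at most 2 decimals on all arrays, for a reason that was not tested. RNA was extracted with Trizol and labelled by a 3′ IVT kit, per the labels' protocols, so degraded RNA loses signal far from the 3′ end. If arrays were scaled to one another, a shift of most transcripts one way would be invisible.

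Of 24123 probe sets 188 controls were dropped and 23935 tested. The probe table names 1 gene for 10099, several for 198 and does not list 13826. All 10 identifiers of the antioxidant genes were in the RefSeq table. Failure was tested against baseline within pig with limma 3.58.1 in R 4.3.3 (two-sided, Benjamini-Hochberg over all tested probe sets, threshold 0.05), and label sets by an interaction. Pairing comes from the pig numbers in the labels. After removal of group means a pig's arrays correlated at 0.449 to 0.750, and 9 of 9 baseline arrays correlated best with their own pig's failure array. Correlations over pigs used exact permutation in scipy 1.17.1. The fits were run on simulated data with known changes, but the shares recovered are not given here. That no antioxidant probe set passed therefore does not show that changes as small as those seen would have been found. Alternatives covered the block, scaling, rounding, filters, variance models, RNA quality, label sets and each pig left out.

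The genes and lists were chosen with earlier results of these data known. Of each other pathway list the text names the 2 genes of smallest p and the brightest. Of marker lists it names the brightest and any past the threshold, with NPPA and HBE1 added. The number of animals limits the precision.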

Additional observations from a re-analysis of the deposited data

Results flagged for a closer look

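Over 54 groups of 9 values (levels in failure, levels at baseline and changes of the 18 probe sets), 6 held an animal set far from the others by Dixon's criterion, where chance gives about 1 in 20, or 2.7. The groups share arrays, animals and genes, so 6 beside 2.7 cannot be read as an excess. Pig 5 gave 4 of them. In failure its level was lowest for SOD1 at 10.16 (others 10.90 to 11.16), for SOD2 at 10.11 (others 10.92 to 11.51) and for CAT at 9.24 (others 10.25 to 11.02). At baseline it was lowest for SOD2 at 9.83 (others 10.84 to 11.70). Its GAPDH 3′/5′ differences, 3.55 in failure and 2.61 at baseline, were the highest of each group.

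TXN gave the other 2. The level of its bright probe set at baseline was lowest in pig 13 at 10.08 (others 10.29 to 10.44), and that of its dim probe set in failure was highest in pig 9 at 6.53 (others 5.11 to 5.59).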

How the results depend on the processing

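None of the probe sets tested passed under any of 23 alternatives (smallest adjusted p 0.261, GPX1 without pig 8). All 18 were tested except above the median level (10), above the 25th percentile (14) and with probe sets averaged per gene (10 genes). The median change over the 18 stayed between -0.04 and 0.000927 with each pig left out and was 0.00535 with the GAPDH covariate. Of 394 alternative values of single probe sets, 369 kept their sign and 25 did not, and 8 probe sets kept it in every alternative in which they were tested. The count of all probe sets called, 16, was 0 without the replicate block, 9 with only probe sets above the median level, 10 with eBayes trend and robust, 0 in the unmoderated paired test, 5 with probe sets averaged per gene, 9 with the GAPDH covariate, 3 in label set 1 and 0 in label set 2. It ran from 2 (without pig 10) to 26 (without pig 8) and was 9, 3, 4, 4 and 5 without pigs 5, 9, 11, 12 and 13. Signs turned with the GAPDH covariate for NQO1 (0.00330), the brightest TXNRD1 (0.00741), the brighter GCLM (0.031) and SOD1 (0.025). They turned in label set 1 for NQO1 (0.050), the dimmest GCLC (-0.00638) and the brighter GCLM (0.041). In label set 2 they turned for TXN (-0.080 bright, -0.21 dim), the second (0.022) and the brightest TXNRD1 (0.047), the dimmer GCLM (0.046) and SOD2 (0.13). With each pig left out, NQO1 ran from -0.026 to 0.016, the bright TXN from -0.033 to 0.071, the brightest TXNRD1 from -0.052 to 0.026, the dimmer GCLM from -0.030 to 0.00510 and the brighter GCLM from -0.12 to 0.019. The causes were not tested. The second GAPDH pair, the actin pair and the 25th percentile filter were chosen after the data had been seen.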
